A study of Mus musculus with 6 samples.

Results

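The 5 genes Mir214, Mir199a-2, Dnm3os, Dnm3 and Twist1 were followed through a comparison of mouse kidneys with and without the microRNA miR-214. They are the deleted hairpin, the sister hairpin beside it, the long noncoding RNA that holds both, the dynamin gene that this RNA overlaps on the other strand, and a transcription factor known to act upstream of the RNA. They were picked by name from a table of 20138 genes, and all 5 are in it. Kidney RNA was sequenced from 6 mice at postnatal day 35, with 3 mice per genotype. Both genotypes carry Pkhd1Cre and the floxed Pkd2 F/F alleles, and the genotype called Pkd2-miR-214-KO here carries miR-214null as well, while the other is called Pkd2-KO. Pkd2 encodes polycystin-2, a channel whose loss causes kidney cysts, and Pkhd1-driven Cre removes it mainly from tubule cells and not from the fibroblasts and vessels of the same kidney. The number of null alleles that a mouse carried, the way the allele was made or the sex of the mice is not given in the sources used here. The comparison asks how Pkd2-deficient kidneys differ when miR-214 is missing, and both groups have the Cre and the Pkd2 deletion in common.

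A microRNA is cut from a folded hairpin in a longer primary transcript, and its seed, bases 2 to 8 of the mature strand, pairs with sites in messenger RNAs that it represses. Mir199a-2 and Mir214 are cut from Dnm3os, which is made mainly by mesenchymal cells such as fibroblasts and pericytes and is known to be needed for normal skeletal growth. Twist1 is a basic helix-loop-helix factor of mesenchymal cells that is known to drive transcription of Dnm3os through E-box sites, whose letters are CANNTG. Dnm3 encodes dynamin-3, a GTPase that pinches membrane vesicles from the cell surface.

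The locus lies on chromosome 1 of GRCm38, the assembly of mm10. In GENCODE M21, Dnm3os spans chr1:162217623-162225550 on the plus strand. Both hairpins lie inside its single exon in the transcript that spans them, 191 and 5745 bases after its start, with 5444 bases between them. All of it falls within an intron of Dnm3 that runs from 162134567 to 162231653, intron 14 of the longest Dnm3 transcript, and Dnm3 itself spans chr1:161982453-162478034 on the minus strand. Twist1 lies on another chromosome, at chr12:33957671-33959829 on the plus strand. The hairpins are shown first because one of them is the deleted element and the other is its nearest internal comparison. Sequences are those of RefSeq on GRCm38.p6, 5′ to 3′, and capitals mark the mature arms in each hairpin.
Mir214 hairpin (chr1:162223368-162223477, plus strand): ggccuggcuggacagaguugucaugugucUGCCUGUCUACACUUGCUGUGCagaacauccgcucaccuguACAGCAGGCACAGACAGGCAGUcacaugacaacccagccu
Mir199a-2 hairpin (chr1:162217814-162217923, plus strand): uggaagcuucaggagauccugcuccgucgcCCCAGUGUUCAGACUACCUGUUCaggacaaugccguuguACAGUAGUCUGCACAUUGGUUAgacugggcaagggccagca
In the 4 mature strands, capitals mark the seed.
mmu-miR-214-5p: uGCCUGUCuacacuugcugugc
mmu-miR-214-3p: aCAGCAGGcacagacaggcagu
mmu-miR-199a-5p: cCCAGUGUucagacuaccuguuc
mmu-miR-199a-3p: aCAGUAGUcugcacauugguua
No seed is shared between the hairpins. Within the RefSeq table of mouse microRNAs, miR-214-3p shares its seed with miR-761, which is made elsewhere. The strand miR-199a-5p is made from 2 hairpins, Mir199a-1 and Mir199a-2, and miR-199a-3p has the same sequence from 3 hairpins, those 2 and Mir199b. Loss of the deleted hairpin therefore removes the only annotated source of both miR-214 strands, whereas the strands of Mir199a-2 have other sources.

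The authors' deposited table gives for each gene a log2 fold, a mean level as log2 CPM, the count scaled to a fixed library size, a likelihood ratio and its p-value, and no value per library. Its lowest entries nevertheless sit on a grid that fixes the reads behind them, because a gene with a single read can take only 1 value for each library. The 548 single-read genes fell into 10 such values, 3 with negative folds, 3 with positive folds and 4 with a fold of exactly 0. The fit thus held 10 libraries, 3 per genotype and 4 outside both genotypes, and each mean level in the table is a mean over all 10. The same grid gave effective library sizes of 40984751 to 47423957 reads in the 6 libraries of the comparison and 27799847 to 32096336 in the other 4, and it gave whole reads per library for genes of few reads, the hairpins among them. For Dnm3os, Dnm3 and Twist1, which have more reads, only the fold, the level and the test are known. The direction of the folds is not stated in the header and was read from Mir214 itself, so that negative means lower in Pkd2-miR-214-KO, and Mir214 is no independent check of the labels. Libraries could be tied to a genotype but not to a named mouse. The labels give no sex. Xist, a noncoding RNA made from the inactive X of female cells, was higher in Pkd2-miR-214-KO in the authors' deposited table. Its log2 fold was 10.21 ± 2.36 (approximate SE, adjusted p = 0.0168, edgeR likelihood ratio test). The part of sex in the results below was not tested, and without the sex of each mouse it cannot be told apart from that of genotype.

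Reads over the deleted hairpin were found in each Pkd2-KO kidney and in no Pkd2-miR-214-KO kidney. The 3 Pkd2-KO libraries held 37, 25 and 24 reads of Mir214, and the 3 Pkd2-miR-214-KO libraries held 0, 0 and 0. The groups did not overlap. Scaled by effective library size, the Pkd2-KO libraries stood at 0.801, 0.567 and 0.557 CPM, a mean of 0.642 ± 0.138 CPM (SD, n = 3). Against a floor of 3 reads over the pooled Pkd2-miR-214-KO libraries, which is 0.0228 CPM, Mir214 was at least 28.3-fold lower in Pkd2-miR-214-KO. That bound takes the pooled Pkd2-KO level of 0.645 CPM as exact. An exact two-sided permutation test of the 3 libraries against 3 gave p = 0.1, the smallest value that this design allows.

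On the log2 scale, the fold fitted in the authors' deposited table was -7.62 ± 1.08 (adjusted p = 1.34e-08, edgeR likelihood ratio test with Benjamini-Hochberg adjustment over all genes). With one group at 0, the size of that fold depends on the prior count and is no bound. It was the lowest fold of all 20138 genes. In the authors' deposited table the next lowest were 2200002J24Rik at -4.27 (adjusted p = 0.389) and Pitx1, a limb homeobox factor, at -4.10 (adjusted p = 0.419), and these were also the genes nearest to Mir214 in fold and level, at distances of 3.42 and 3.90 log2 units. At its fitted fold Mir214 thus had no close match in the table, but those distances depend on the prior count as the fold does. Of the 889 genes whose mean log2 CPM lay within 0.5 of its own, 0 had a lower fold. Mir214 was the only gene of the 5 with an adjusted p under 0.05, a threshold that 0.124% of all genes passed in either direction and 0.0199% (4 genes) passed as lower.

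**Figure D1:**
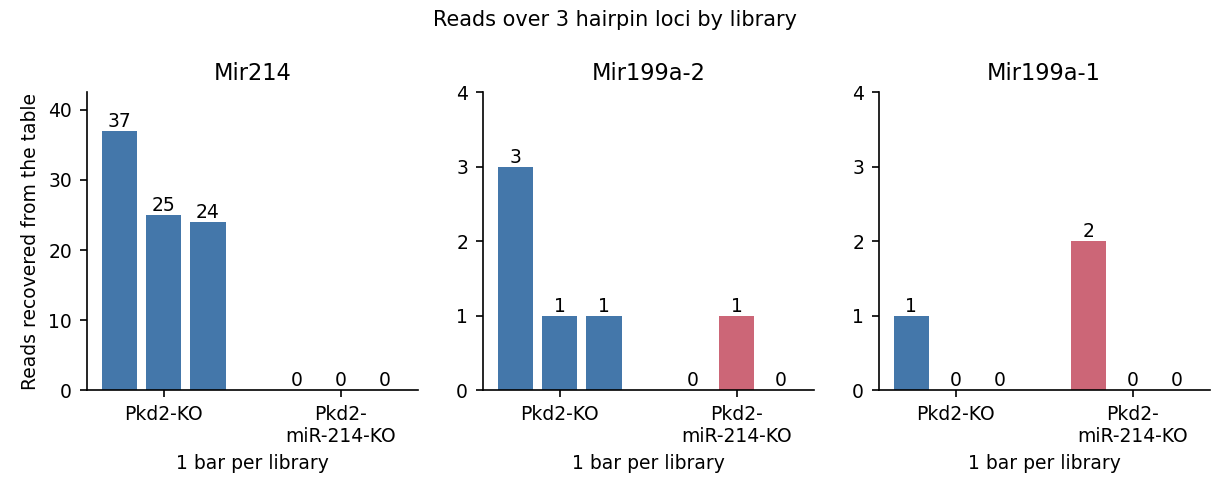
Whole reads over Mir214, Mir199a-2 and Mir199a-1 in each library, 1 bar per library ordered by effective size within a genotype, with a separate vertical axis for Mir214. Mir214 has 24 to 37 reads in the Pkd2-KO libraries and 0 in all 3 Pkd2-miR-214-KO libraries, while the 2 other hairpins have at most 3 reads in any of these libraries.

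The sister hairpin was barely covered, and a change in it was not detectable at this depth. Mir199a-2 had 3, 1 and 1 reads in the Pkd2-KO libraries and 0, 1 and 0 in the Pkd2-miR-214-KO libraries. The groups overlapped at 1 read, and the exact two-sided permutation p was 0.2 (3 libraries per group). The pooled ratio of Pkd2-miR-214-KO to Pkd2-KO was 0.203, with an exact 95% interval of 0.00428 to 1.81 that covers counting error only. That interval spans no change as well as a large loss. The authors' deposited table gives it a fitted log2 fold of -1.90 ± 1.26 and an adjusted p of 1 by the edgeR likelihood ratio test. Among the 2646 genes of like level, 7.45% had a lower fold. Its nearest genes in fold and level were Zfp804b (-1.91) and another hairpin, Mir6999 (-1.92), in the authors' deposited table.

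In Pkd2-KO kidneys the reads of the locus's hairpins came mostly from Mir214. The hairpins have the same annotated length, 110 bases, so their reads can be set side by side. Mir214 held 86 of the 91 reads, or 94.5% (exact 95% interval 87.6% to 98.2%), a ratio of 17.2 to 1. Per kilobase, the pooled Pkd2-KO level was 5.86 CPM for Mir214 and 0.341 CPM for Mir199a-2. These are reads of a library for long RNA that fell on the hairpin's interval, and they do not measure the mature strands of 22 or 23 bases. Mir199a-1, the copy of the sister hairpin on another chromosome, had 1, 0 and 0 reads in the Pkd2-KO libraries and 2, 0 and 0 in the Pkd2-miR-214-KO libraries. Too few reads fell there to compare the genotypes (exact two-sided permutation p = 1, 3 libraries per group). Of the 5 hairpin names looked up, Mir199b and Mir3120 had no line in the table.

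Dnm3os, the host RNA of both hairpins, had a negative fold that passed an unadjusted threshold and not the adjusted one. The authors' deposited table gives a log2 fold of -1.23 ± 0.37 (approximate 95% interval -1.95 to -0.50), or 42.8% of the Pkd2-KO level, at p = 0.000920 and an adjusted p of 0.213 (edgeR likelihood ratio test). Of all genes, 4.82% had an unadjusted p under 0.05 and 1.71% had one with a negative fold. By p-value Dnm3os ranked 86 of the 20138 genes. Among 1449 genes of like level, 4 had a lower fold, which is 0.276%. The fold of a gene that contains the deleted hairpin can include reads lost with that hairpin. Reads on the Mir214 interval pooled to 0.645 CPM in Pkd2-KO kidneys, beside a mean of 7.44 CPM for Dnm3os over the 10 libraries. Whether they also counted for Dnm3os, and how far the deletion reaches, is not given in the sources used here. Their part in the fold was not tested. The nearest genes in fold and level were Kif20a, a mitotic kinesin, at -1.07 ± 0.63, and Prn at -1.04 ± 0.46 in the authors' deposited table. Neither of them passed the adjusted threshold.

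The level of Dnm3os can be set beside that of the hairpin per kilobase. Over the 10 libraries its mean log2 CPM in the authors' deposited table was 2.90, which is 7.44 CPM and 0.938 CPM per kilobase of its 7928 exonic bases. If the 4 libraries outside the genotypes held none of its reads, the fold and mean would put it at 17.0 CPM in Pkd2-KO kidneys and at 7.29 CPM in Pkd2-miR-214-KO kidneys, and any reads in those 4 libraries lower both. That highest Pkd2-KO level is 2.15 CPM per kilobase, if the fitted fold is taken as exact, beside a pooled 5.86 for Mir214. A read that only overlaps a short interval counts for it in full, which raises a level per kilobase for a feature as short as a hairpin, and how reads were assigned is not given in the sources used here. Since whole kidneys were sequenced, fewer cells that make Dnm3os and less of its RNA per cell cannot be told apart.

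**Figure D2:**
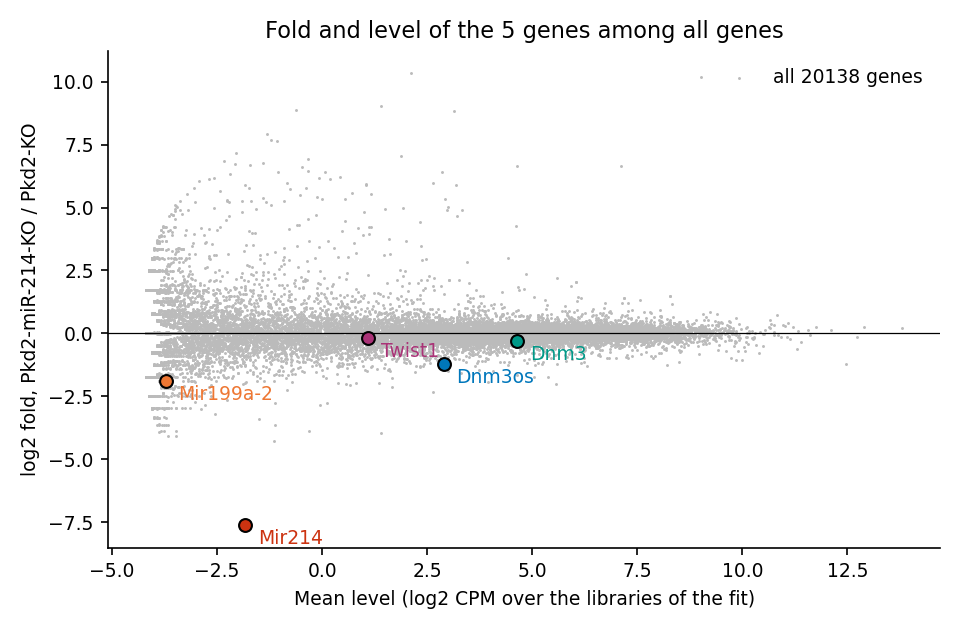
Log2 fold of Pkd2-miR-214-KO over Pkd2-KO against the mean level in log2 CPM over the 10 libraries of the fit, with 1 grey point per gene for 20138 genes and the 5 named genes in colour. Mir214 (-7.62) lies below all other points, Dnm3os (-1.23) lies at the lower edge of genes of its level, and Dnm3 (-0.29) and Twist1 (-0.18) lie within the body of the points.

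The window before the start of Dnm3os is shown because it is where an upstream factor such as Twist1 could bind. It is the RefSeq promoter window at chr1:162217373-162217672 (GRCm38.p6, plus strand), 250 bases before the start and 50 after, and capitals mark each match to CANNTG, which reads the same way on both strands.
Dnm3os promoter: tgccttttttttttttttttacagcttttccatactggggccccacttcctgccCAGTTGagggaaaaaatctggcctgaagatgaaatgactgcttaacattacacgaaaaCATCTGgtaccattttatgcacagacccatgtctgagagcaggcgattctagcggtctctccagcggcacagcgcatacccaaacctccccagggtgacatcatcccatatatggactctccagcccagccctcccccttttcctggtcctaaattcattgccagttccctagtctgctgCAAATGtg
It holds 3 matches, CAGTTG at -196, CATCTG at -138 and CAAATG at 42 relative to the start. Such matches are common, since 72.3% of 32851 RefSeq promoter windows of this length hold at least 1 CANNTG and 17.6% hold 3 or more. CATCTG on either strand is in 17.2% of them. The window of Dnm3 holds 2 CANNTG matches and that of Twist1 holds 0. These are descriptions of letters, and no binding was measured here.

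Twist1, the upstream factor, had a fold near 0 with a wide interval. The log2 fold that the authors' deposited table gives is -0.18 ± 0.44 (approximate 95% interval -1.04 to 0.68), at an adjusted p of 1 by the edgeR likelihood ratio test. The interval overlaps that of Dnm3os, and the difference itself was not tested. At a mean of 2.13 CPM over the 10 libraries, or 1.31 CPM per kilobase, its level was above that of 32.8% of the genes in the table. Among 913 genes of like level, 36.3% had a lower fold. Pcdhb12 (-0.20) and Lep (-0.18) were nearest to it in fold and level in the authors' deposited table.

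The relatives and partners of Twist1 went both ways. Of 11 measured, which were Twist1, Twist2, the related Hand1 and Hand2, the E proteins that pair with them and the Id proteins that block such pairing, 6 had positive and 5 negative folds. Their median log2 fold was 0.01, and 0.00 without Hand1, beside a median of 0.00 for all genes, of which 49.8% were positive and 48.2% negative. None passed the adjusted threshold, and 1 of the 11 passed an unadjusted p of 0.05, against 4.82% of all genes. That gene was Hand2, a factor of sympathetic and adrenal chromaffin cells among others, at 2.34 ± 1.06 (adjusted p = 0.852, edgeR likelihood ratio test) in the authors' deposited table. Its reads numbered 0, 0 and 3 in Pkd2-KO libraries, against 5, 10 and 2 in Pkd2-miR-214-KO, so the groups overlapped (exact two-sided permutation p = 0.2, 3 libraries per group). Hand1 had no read in Pkd2-KO, and the Pkd2-miR-214-KO libraries held 1, 1 and 0. Among the Id genes, Id4 stood at -0.25 ± 0.22 in the authors' deposited table.

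Genes of the mesenchymal program that Twist1 is known for also went both ways. Of 13 transcription factors and targets measured, 7 had positive and 6 negative folds, with a median of 0.02. An unadjusted p of 0.05 was passed by 0 of the 13, against 4.82% of all genes. The 7 positive folds include that of Cdh1, an epithelial and not a mesenchymal gene, at 0.17 ± 0.27 in the authors' deposited table. Lowest in p in the authors' deposited table were Snai1, a repressor of epithelial genes, at -0.53 ± 0.33, and its relative Snai2 at -0.48 ± 0.38. Next came the polycomb gene Bmi1 (0.24 ± 0.20) and the fibronectin gene Fn1 (-0.40 ± 0.38) in the authors' deposited table. Every one of these 4 intervals includes 0.

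Dnm3, which Dnm3os overlaps on the opposite strand, had a small negative fold that passed no threshold. On the log2 scale it stood at -0.29 ± 0.26 in the authors' deposited table (approximate 95% interval -0.79 to 0.21), with p = 0.253 and an adjusted p of 1 by the edgeR likelihood ratio test. The interval overlaps that of Dnm3os, and the difference itself was not tested. Among 2726 genes of like level, 8.36% had a lower fold. Its mean level was 25.0 CPM over the 10 libraries, or 1.02 CPM per kilobase of the union of its annotated exons, 24452 bases over 12 transcripts. Phyhipl (-0.31) and Map3k10 (-0.31) were the nearest genes in fold and level in the authors' deposited table. No annotated exon of Dnm3 overlaps Dnm3os. The extract protocol names a stranded kit, but whether the counting used strand is not given in the sources used here. Reads of unspliced Dnm3 RNA over this stretch therefore cannot be told apart from reads of Dnm3os or of the hairpins within it.

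Of the dynamins and their partners, 0 passed an unadjusted p of 0.05, which 4.82% of all genes did. Of the 7 members of the superfamily, 4 had positive and 3 negative folds, from -0.29 for Dnm3 to 0.08 for Opa1, with a median of 0.05. The endocytic dynamins Dnm1 and Dnm2 stood at 0.05 ± 0.33 and 0.06 ± 0.22 in the authors' deposited table. Dnm1l, which divides mitochondria, stood at 0.06 ± 0.21, and Mfn1, Mfn2 and Opa1, which fuse them, at -0.02 ± 0.21, -0.12 ± 0.20 and 0.08 ± 0.19, in the authors' deposited table. Dnm3 had the lowest fold of the 7, and its interval overlaps those of the other 6. Of 19 partners of dynamin in endocytosis, 14 had negative and 5 positive folds, with a median of -0.07. The partners with the lowest p in the authors' deposited table were Pacsin1 (0.74 ± 0.50), Sh3gl3 (0.64 ± 0.51), Sh3gl1 (-0.24 ± 0.20) and Amph (-0.48 ± 0.50).

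**Figure D3:**
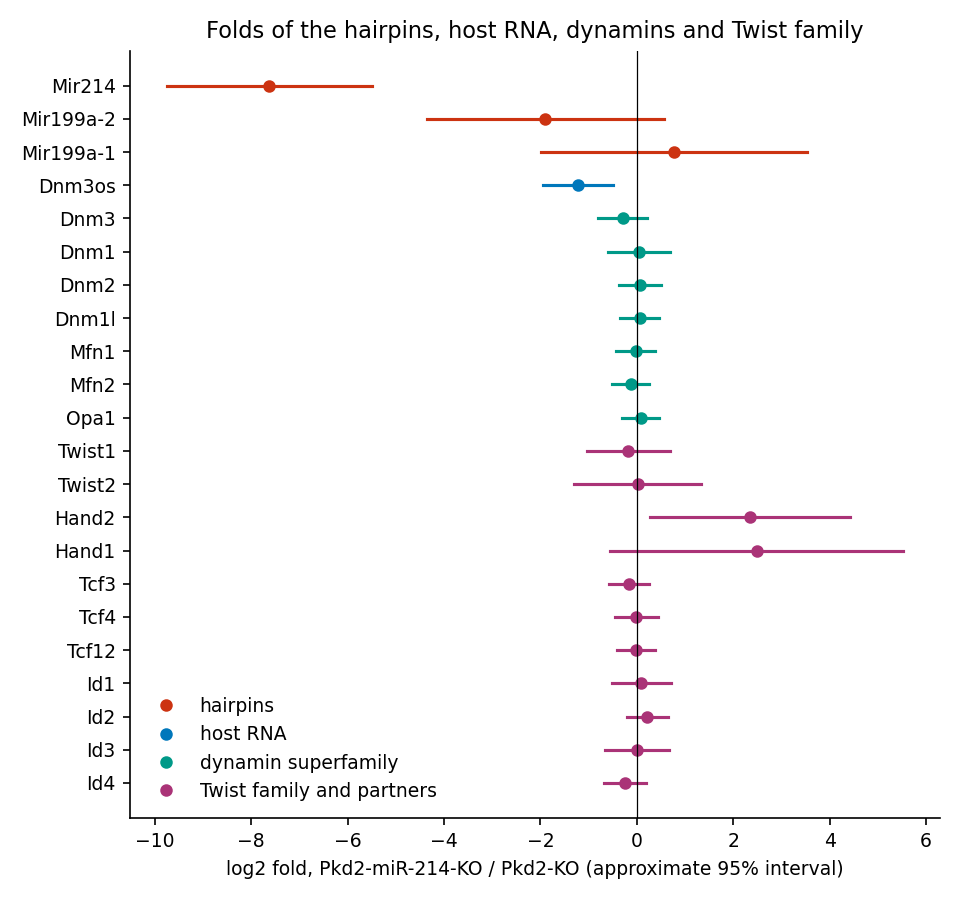
Log2 folds of Pkd2-miR-214-KO over Pkd2-KO with approximate 95% intervals for 3 hairpins, the host RNA Dnm3os, 7 dynamin superfamily genes and 11 genes of the Twist family and its partners. The intervals of Mir214, Dnm3os and Hand2 leave out 0, and those of the other genes include it.

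Folds of the genes around the locus lay on both sides of 0. Within 1 Mb of the hairpin on either side, 19 genes other than the 4 described were in the table, of which 10 had negative and 8 positive folds, with a median of -0.02. One of the 19, or 5.26%, passed an unadjusted p of 0.05, against 4.82% of all genes, and 0 passed the adjusted threshold. Within 2 Mb it was 5 of 43, or 11.6%. Nearest to the hairpin was 2810442N19Rik, a noncoding RNA that lies inside the span of Dnm3, with 2, 3 and 1 reads in the Pkd2-KO libraries and 4, 3 and 3 in the Pkd2-miR-214-KO libraries. Those groups met at 3 reads, and the exact two-sided permutation p on CPM was 0.1 (3 libraries per group).

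Of the next genes out, 4930558K02Rik had 1 read in each genotype and 7420461P10Rik had none. Pigc, which starts the synthesis of membrane anchors for proteins, stood at 0.14 ± 0.27 and Suco at 0.22 ± 0.21 in the authors' deposited table. On the other side, Mettl13, a methyltransferase, stood at -0.02 ± 0.26 and the vesicle protein gene Vamp4 at 0.35 ± 0.23 in the authors' deposited table. Myoc, which encodes myocilin, had the lowest fold of the 8 nearest, -1.48 ± 0.82 with p = 0.0714 and an adjusted p of 1 by the edgeR likelihood ratio test in the authors' deposited table. Of the 8 nearest, 0 passed an unadjusted p of 0.05, which 4.82% of all genes did, and 2 of the 8 had too few reads to pass.

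**Figure D4:**
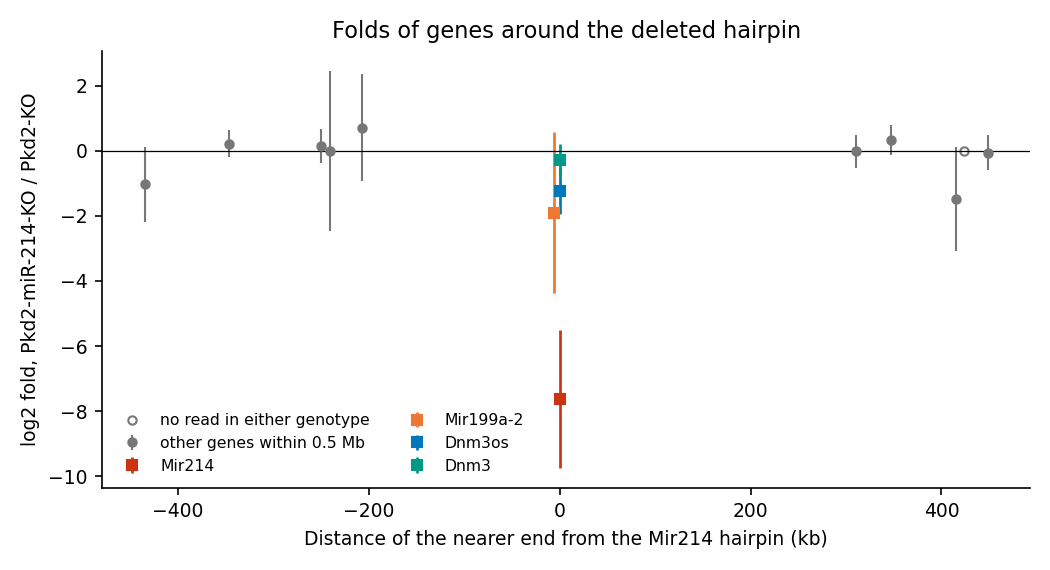
Log2 folds with approximate 95% intervals of genes within 0.5 Mb of the Mir214 hairpin, by the distance in kb of each gene's nearer end, with Dnm3os and Dnm3 at 0 because they span the hairpin. Mir214 (-7.62) and Dnm3os (-1.23) have intervals below 0, and the intervals of the neighbours with reads include 0.

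Markers of fibroblasts and pericytes, cells known to make Dnm3os, had mostly negative folds, and so did those of kidney epithelium and podocytes. Of 14 fibroblast and pericyte markers, 11 had negative and 3 positive folds, with a median log2 fold of -0.31, where 48.2% of all genes were negative. The adjusted threshold was passed by 0 of the 14, and by 0.124% of all genes. In the authors' deposited table the collagen gene Col1a1 stood at -0.46 ± 0.33. An unadjusted p under 0.05 was found for 3 of the 14, against 4.82% of all genes. Positive among them in the authors' deposited table were the matrix proteoglycan genes Dcn (1.18 ± 0.31) and Lum (1.21 ± 0.47), and negative was Tcf21, a factor of the stroma and podocytes, at -0.59 ± 0.29. Markers within this list thus went both ways. Of 9 markers of kidney epithelium and podocytes, all detected at mean log2 CPM of 4.74 to 11.40, 6 had negative and 3 positive folds, with a median of -0.43 and 0 past an unadjusted p of 0.05, against 4.82% of all genes. Pkd2 itself stood at -0.11 ± 0.23 in the authors' deposited table, in genotypes that both carry the floxed alleles.

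Reads of Th and Dbh, enzymes of the adrenal medulla, were concentrated in a pair of the Pkd2-miR-214-KO libraries. Of 8 markers of adrenal, liver and muscle measured, 7 had positive folds, 5 passed an unadjusted p of 0.05, all as higher (3.1% of all genes), and 1 the adjusted threshold (0.104% of all genes as higher). Their median log2 fold was 3.82, or 2.83 with Th at its lower bound. In the authors' deposited table the plasma protein genes of liver, Alb and Apoa1, stood at 6.64 ± 2.05 and 5.92 ± 1.63. Th, the rate-limiting enzyme of catecholamine synthesis, had 0, 0 and 0 reads in the Pkd2-KO libraries and 15, 14 and 0 in the Pkd2-miR-214-KO libraries. The groups overlapped at 0 (exact two-sided permutation p = 0.4, 3 libraries per group). Its pooled reads were at least 9.79-fold higher against a floor of 3 reads over the pooled Pkd2-KO libraries. Dbh, the next enzyme but one of that pathway, had 0, 1 and 0 reads in the Pkd2-KO libraries and 31, 24 and 1 in the Pkd2-miR-214-KO libraries (log2 fold 5.27 ± 1.31 and adjusted p = 0.0475 by the edgeR likelihood ratio test in the authors' deposited table). Its groups met at 1 read, and the exact two-sided permutation p on CPM was 0.1 (3 libraries per group). The same pair of Pkd2-miR-214-KO libraries held nearly all reads of both genes, and the remaining library stood at or next to 0. In those libraries Hand2 had 5 and 10 reads, and in the remaining one it had 2.

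Mir214 was at 0 reads in that remaining library as well as in the pair with Th reads. For Dnm3os, Dnm3 and Twist1 no value without the pair could be given, and the part of adrenal or liver RNA in their folds was not tested. Reads of single genes shown per library, other than those of the hairpins, were looked up after their folds were seen.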

How the data were processed

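Total or polyadenylated RNA (the extract protocol and the series text differ on which) of 6 frozen kidneys was sequenced, and the authors deposited 1 table of 20138 genes. TopHat2 2.0.12, edgeR and mm10 appear in the submitters' processing notes. How reads were counted, filtered and normalized is not given in the sources used here. Per the file headers, the deposited values are a log2 fold, a mean log2 CPM, a likelihood ratio score and p-values, plain and adjusted. The deposited p-value equalled the chi-square tail of the score on 1 degree of freedom within 6.25e-15, and the adjusted one its Benjamini-Hochberg form within 5.10e-14. The design foresaw a test on counts, for which the table has no columns, so the authors' test was used as it stands, and no test per gene was added across all genes. That test was taken to hold 6 libraries, and the recovery below found 10.

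For an approximate SE the log2 fold, without its sign, was divided by the square root of the likelihood ratio, with 1.96 SE for a 95% interval. It is poor at low counts. Reads per library of rare genes were recovered by inverting the formulas of the authors' tool, edgeR, with a prior count of 2 and dispersion of 0.05 behind the mean level and a prior count of 0.125 behind the fold. This step was added after the table was seen. A set of whole reads was accepted when it matched the mean log2 CPM within 1e-08 and the log2 fold within 1e-06. Genes with 2 reads, which were not used to set library sizes, matched in 359 of 359 cases, and 676 of 676 genes with few reads had exactly 1 solution. For Mir214, 34516482 sets were tried, of which 3 matched the level and 1 matched all values. Of 62 genes simulated for the 10 libraries, 62 were recovered. The simulation used the same formulas and constants, so it checks the search only, and not whether the deposited values were made that way. Intervals and floors of 3 reads cover counting error only.

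Nothing says that the mice came from separate litters, so the permutation p-values cover only the 6 libraries compared. The fit behind the deposited p-values also held the 4 libraries outside both genotypes. How it estimated the spread, and from which libraries, is not given in the sources used here. The genes and lists were chosen with earlier results of these data known. Named genes were the 5 genes, all measured hairpins and dynamins, the 8 nearest neighbours, up to 4 genes of smallest p per other list (Pkd2 and Xist are named besides), and the 2 nearest genes in fold and level for each of the 5. Some genes are not reported here. Annotation was GENCODE M21. Alternatives were other p-value adjustments, filters on level, centring and window sizes. Python 3.11.15, numpy 2.4.6, pandas 2.3.3, scipy 1.17.1, numba 0.67.0, statsmodels 0.14.6 and matplotlib 3.10.9 were used.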

Additional observations from a re-analysis of the deposited data

Results flagged for a closer look

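The 4 libraries of the fit that belong to neither genotype held 5 reads of Mir214 in all, 1, 1, 1 and 2 per library at effective sizes of 32096336, 29206205, 27870102 and 27799847 reads. These are reads in libraries that the comparison does not use. A count of 0 would allow 3 reads (0.0256 CPM), which is no threshold for noise, and Mir199a-2 had 3 reads in the same libraries. The levels of Mir214 in the 4 libraries were 0.0312, 0.0342, 0.0359 and 0.0719 CPM. What these libraries are is not given in the sources used here, so no comparison with the genotypes was made.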

How the results depend on the processing

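Adjusted p-values of the 5 genes kept their side of 0.05 under Benjamini-Yekutieli and Holm adjustment and under a filter at a mean log2 CPM of -2, wherever the gene passed the filter. Adjusted p ran from 1.08e-08 to 1.41e-07 for Mir214 and from 0.193 to 1 for Dnm3os. With only genes at a mean log2 CPM of at least 0, 0 of the 5 genes passed in place of 1, because that filter removes both hairpins. The number of genes past the threshold over the whole table was 25, and 19 and 24 with filters at 0 and -2, and 14 under Benjamini-Yekutieli as under Holm. Subtracting the median fold of all genes changed no fold, since it is 0. The share of like-level genes below Mir199a-2 went from 7.45% to 9.45% with a window of 0.25 log2 units. Neighbours with an unadjusted p under 0.05 numbered 0 of 10 within 0.5 Mb, 1 of 19 within 1 Mb and 5 of 43 (11.6%) within 2 Mb, against 4.82% of all genes. Leaving out single mice could not be done on the authors' test, which has no values per library for Dnm3os, Dnm3 and Twist1. No paired analysis was possible because the labels give no shared numbers and the table has no values per mouse. Depth limits Mir199a-2 and Mir199a-1, which had 6 and 3 reads over the 6 libraries.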
